A study of Mus musculus with 20 samples.

Results

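Gas5, Snhg1, Snhg3, Snhg6, Snhg8 and Snhg12 are host genes of small nucleolar RNAs (snoRNAs), and they are described here in the ribosome-bound RNA and the total RNA of mouse cortex. The 6 symbols were listed for how they stood in the pull-down against the lysate and in animals with different forms of name, and genes with a mean level under 1 CPM (counts scaled to a common library size) were dropped. Of the 6, 4 were matched to an Ensembl identifier of the count table and kept (Gas5, Snhg6, Snhg12 and Snhg3), out of 25317 genes in the table. Snhg1 and Snhg8 were not matched to a row and their levels are not analysed here. Mean CPM over the libraries was 61.4 for Gas5, 13.2 for Snhg6, 9.19 for Snhg12 and 1.47 for Snhg3. Snhg3 was thus the member nearest above the limit of 1 CPM, and no measured member fell under it. Because the pull-down contrast and the name contrast chose these genes, both are given for them as descriptions without a test.

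A snoRNA host gene makes 2 kinds of product from 1 transcript. Its introns are trimmed to snoRNAs, which stay in the nucleolus and guide the methylation or pseudouridylation of ribosomal RNA, and its exons are spliced into an RNA that, in the hosts listed here, has no conserved protein product. The spliced Gas5 RNA is known to start with a 5′ terminal oligopyrimidine tract (TOP), the same start that places ribosomal protein mRNAs under growth-dependent translation, and to be broken down by nonsense-mediated decay when ribosomes read its short open reading frame. Gas5 is named for its accumulation in growth-arrested cells.

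The animals were C57BL/6 mice, 3 months old, and were either wild types or heterozygous for a Foxp2 deletion in the cortex. Ribosomes carrying a GFP tag were purified from the cortical lysate of single animals with anti-GFP serum (the bacTRAP method, here IP), and a sample of the same lysate taken before that step served as Input. IP and Input were compared in 8 animals: 5 wild types (wt734, wt736, wt785, wtBT13 and wtBT14) and 3 heterozygotes (het729, het786 and hetBT13). A further 4 libraries, from het730 and hetBT14, have titles ending in IX or IXX, and were kept out of the comparisons. The promoter or Cre line behind the deletion, the cells that hold the GFP tag and the sex of the animals are not stated in the available descriptions. The titles name animals by a number alone (5 of those compared) or by BT and a number (3, of which 1 is a heterozygote). What the name forms stand for is not given either, so they are used only as labels.

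Libraries held 2689544 to 5754169 counts. Gas5 rested on 163 to 426 counts in each library compared, Snhg6 on 16 to 117, Snhg12 on 13 to 77 and Snhg3 on 1 to 14, so Snhg3 values carry the largest counting error of the 4. Markers of cortical neurons, astrocytes, oligodendrocytes, microglia and endothelium were all detected, with no listed marker at 0 and only Ly6c1 (endothelium, 0.883 CPM) under 1 CPM on average. In IP, mitochondrially encoded RNA took 0.0611% to 0.125% of counts except in het729, at 0.396%, against 0.92% to 1.85% in Input. The IP library of het729 therefore stands apart, and values without het729 are given for the hosts beside the pull-down and genotype results that change with it. In bulk tissue, fewer cells of a type and less RNA per cell cannot be told apart.

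The 4 measured hosts differ in structure and in how cleanly they can be counted. Gas5 (ENSMUSG00000053332) lies on chromosome 1, from 161034422 to 161038539 on the plus strand (mm10, GENCODE M21). It has 10 annotated snoRNA entries inside it, and 20 of its 25 transcripts are annotated as retaining an intron. With snoRNA entries left out of the count, here and below, none of its exonic bases is shared with another gene. Snhg12 (ENSMUSG00000086290) lies on chromosome 4, from 132308623 to 132311024 on the plus strand, with 5 snoRNA entries. Its annotated exons together take in 2402 bases, the whole of that span, and so run across those entries. No exonic base of Snhg12 is shared with any other gene. Snhg3 (ENSMUSG00000085241), the host of Snora73a and Snora73b, lies close by on the minus strand of the same chromosome, from 132348014 to 132353686. Of its exonic bases 83.3% are shared with Rcc1 on the same strand or with the noncoding Gm17300 on the other. Snhg6 (ENSMUSG00000098234), the host of Snord87, lies on the minus strand of chromosome 1 from 9941959 to 9944118, and 11.1% of its exonic bases are shared with Mcmdc2 on the opposite strand. The Smart-seq2 protocol keeps no strand information, so reads from overlapping exons cannot be assigned to 1 gene, and the values of Snhg3 and Snhg6 are uncertain to that extent.

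The starts of Gas5, Snhg12 and Snhg3 are shown because a pyrimidine tract at the first base is a feature that Gas5 is known to share with ribosomal protein genes. Snhg6 had no entry among the start sequences. Each line gives 100 bases of RefSeq sequence (GRCm38.p6) around an annotated start, 50 bases before it and 50 from it onward, 5′ to 3′ on the gene's strand. Capitals mark the unbroken run of C and T letters that holds the start base, where that run has at least 5 letters. Gas5 is at chr1:161035116-161035215 (plus strand), Snhg12 at chr4:132308628-132308727 (plus strand) and Snhg3 at chr4:132353637-132353736 (minus strand).
Gas5: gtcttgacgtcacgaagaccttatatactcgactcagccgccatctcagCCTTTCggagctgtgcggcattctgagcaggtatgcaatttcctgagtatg
Snhg12: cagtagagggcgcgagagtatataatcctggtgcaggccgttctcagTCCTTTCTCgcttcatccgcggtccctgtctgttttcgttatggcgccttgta
Snhg3: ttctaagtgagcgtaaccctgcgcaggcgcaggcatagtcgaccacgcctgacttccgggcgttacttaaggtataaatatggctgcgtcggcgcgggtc

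The Gas5 run has 6 letters and opens 1 base before the annotated start, and the Snhg12 run has 9 letters and opens 3 bases before it. At the Snhg3 start there was no such run, which says only that these letters are not at this annotated base. Gas5 has a second annotated start further upstream, at 161034601, also without a run. Such a run stood at an annotated start of 3191 of 27025 genes in the promoter table (11.8%). Among the listed hosts 3 of the 5 with an entry had one (Gas5, Snhg12 and Snhg8), as did 14 of 36 cytosolic ribosomal protein genes (38.9%) and 2 of 26 protein-coding snoRNA hosts (7.69%). These shares describe sequence only, and they depend on how exactly the start was annotated.

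The reading frame of spliced Gas5 is shown because it is the stretch a ribosome could translate. The GENCODE transcript used has 502 bases in 12 exons. It was picked by basic tag, then support level, then name, after transcripts that retain an intron were left out. Its longest frame that opens with ATG runs from base 103 to base 222, or 39 codons before the stop. The frames of other transcripts are not described here. Capitals mark the start and stop codons.
Gas5 reading frame: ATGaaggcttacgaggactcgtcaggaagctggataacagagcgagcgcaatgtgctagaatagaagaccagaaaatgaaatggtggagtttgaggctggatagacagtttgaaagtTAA

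In that Gas5 transcript 4 exon junctions lie more than 50 bases after the stop, the layout that nonsense-mediated decay is known to recognise. The Snhg12 transcript picked in the same way (606 bases, 5 exons) has a longest frame of 54 codons with 3 such junctions. That of Snhg6 (473 bases, 4 exons) has 53 codons with 1 such junction. That of Snhg3 (581 bases, 2 exons) has 43 codons and none. The 4 spliced RNAs are thus alike in length and in having short frames, and differ in the junctions that follow.

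Gas5 was the most abundant of the 4 per length of its spliced transcript. In Input it stood at 168 ± 41.3 CPM per kilobase of transcript (SD, n = 8), Snhg6 at 24.3 ± 7.32, Snhg12 at 13 ± 3.83 and Snhg3 at 1.9 ± 0.899. In IP the same scale gave 76.9 ± 6.74 for Gas5, 31.5 ± 7.92 for Snhg6, 17.3 ± 2.79 for Snhg12 and 3.15 ± 1.04 for Snhg3. On this scale the ranges of Gas5 and Snhg6 did not meet in either fraction (108 to 221 against 13.6 to 34.2 in Input, 68.5 to 89 against 21.6 to 45.2 in IP), while those of Snhg6 and Snhg12 overlapped in Input. The order in IP depends on the length used. A further scale was per kilobase of all exonic bases not shared with other genes, with snoRNA entries again left out of the sharing. It counts retained introns of Gas5 and the whole span of Snhg12, and for Snhg3 it rests on 165 bases. The transcript scale divides Snhg3 counts by 581 bases, though most Snhg3 exonic bases are shared. Per kilobase of unshared exonic bases, IP levels were 10.3 ± 0.9 for Gas5, 14.6 ± 3.68 for Snhg6, 11.1 ± 3.66 for Snhg3 and 4.37 ± 0.703 for Snhg12. Gas5 no longer stood first. In Input that scale gave 22.4 ± 5.51 for Gas5, 11.3 ± 3.4 for Snhg6, 6.69 ± 3.17 for Snhg3 and 3.28 ± 0.967 for Snhg12, with Gas5 still first.

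Gas5 RNA was lower on the purified ribosomes than in the lysate in each of the 8 animals, while the other 3 hosts were not. Among number-named animals, Gas5 in Input was at 111 CPM in het729, 102 in wt785, 95.5 in both wt736 and het786, and 87.4 in wt734. Among BT-named animals it was at 54.3 CPM in wtBT13, 62.7 in wtBT14 and 65.5 in hetBT13. In IP the levels were 44.7 CPM in het729, 34.4 in wt785, 37.6 in wt736, 34.7 in het786, 38.1 in wt734, 40.6 in wtBT13, 37.9 in wtBT14 and 40.7 in hetBT13. Every IP library lay below every Input library, and IP levels of Gas5 were close together whereas Input levels spread out with the form of the name.

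Over all 8 animals Gas5 stood at 84.2 ± 20.7 CPM in Input and 38.6 ± 3.38 in IP (SD, n = 8). The fit across all genes, with the animal as a block, gave an IP to Input difference of -1.12 on the log2 scale, or 0.461-fold, and 5.14% of genes had a value that low or lower. IP was below Input in all 8 animals for 22.4% of the 14797 genes tested, and Gas5 is 1 of them by choice of the list. Without het729 the log2 difference of Gas5 was -1.08. The ratio of IP to Input was 0.436 in wt734 (95% exact binomial interval 0.366 to 0.518), 0.393 in wt736 (0.333 to 0.464), 0.339 in wt785 (0.28 to 0.408), 0.403 in het729 (0.343 to 0.471) and 0.364 in het786 (0.301 to 0.438). In BT-named animals it was 0.747 in wtBT13 (0.608 to 0.919), 0.605 in wtBT14 (0.496 to 0.739) and 0.621 in hetBT13 (0.507 to 0.762). All 8 intervals lay under 1, which is a description and no test, since the pull-down contrast chose the gene. The intervals cover counting error only and treat each read as a separate molecule. Smart-seq2 reads carry no molecular identifiers, so amplification copies would make the intervals too narrow.

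**Figure D1:**
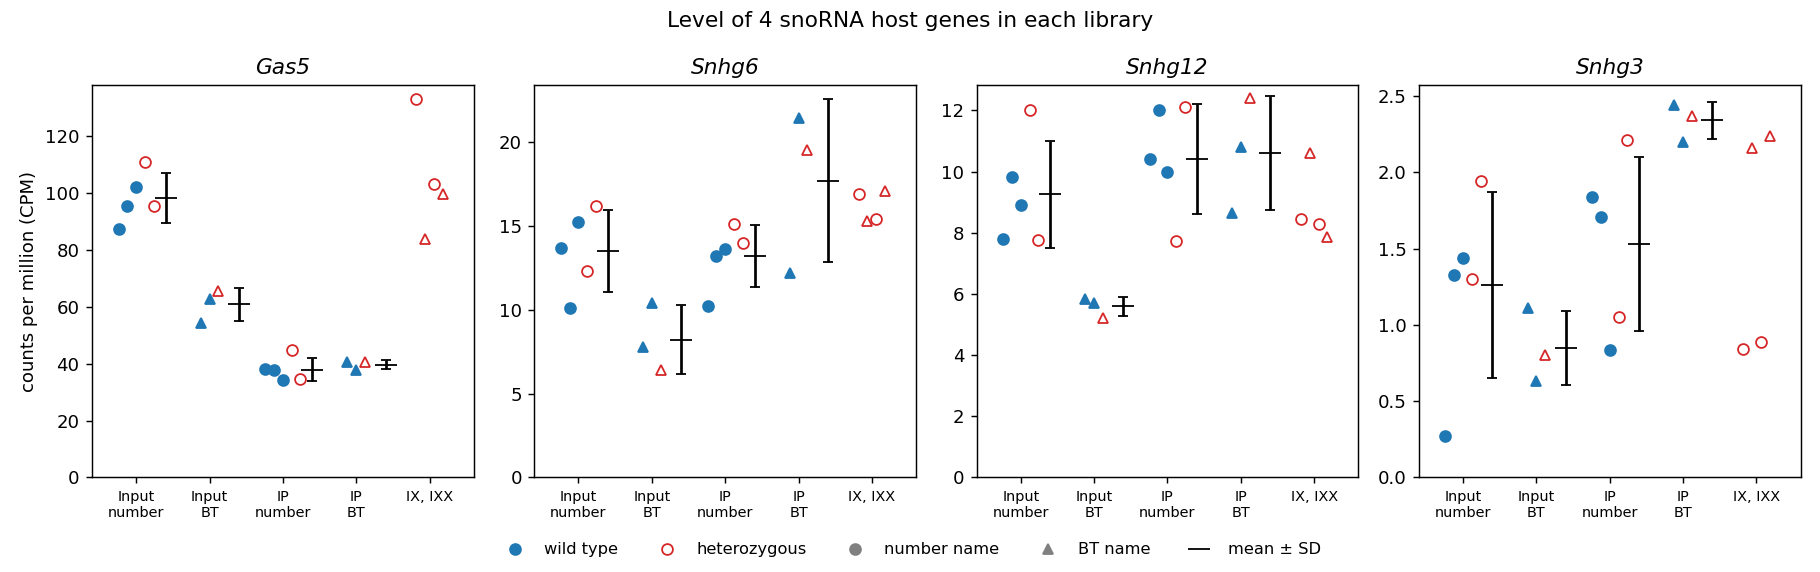
CPM of Gas5, Snhg6, Snhg12 and Snhg3 (vertical axes, linear, each from 0) in every library, grouped by fraction and form of name, with the IX and IXX libraries at the right; filled points are wild types, open points heterozygotes, circles number-named and triangles BT-named animals, and black bars the mean ± SD. Gas5 falls from 54.3 to 111 CPM in Input to 34.4 to 44.7 in IP, and the BT-named Input libraries of Gas5 and Snhg12 lie below all number-named ones.

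Snhg6, which hosts the box C/D snoRNA Snord87, averaged 11.5 ± 3.46 CPM in Input and 14.9 ± 3.76 in IP (SD, n = 8). Its Input levels were 16.2 CPM in het786, 12.3 in het729, 15.2 in wt785, 10.1 in wt736, 13.7 in wt734, 7.79 in wtBT13, 10.4 in wtBT14 and 6.43 in hetBT13. Its IP levels were 14 CPM in het786, 15.1 in het729, 13.6 in wt785, 13.2 in wt736, 10.2 in wt734, 12.2 in wtBT13, 21.4 in wtBT14 and 19.5 in hetBT13. The fractions overlapped. IP was above Input in 5 animals and below it in 3, with ratios from 0.743 in wt734 to 3.03 in hetBT13, and the interval lay above 1 in wtBT14 (1.38 to 3.12) and hetBT13 (1.79 to 5.48). The fit gave 0.37 on the log2 scale, or 1.29-fold, and the value fell to 0.16 without hetBT13.

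Snhg12, which hosts the box H/ACA snoRNAs Snora16a, Snora44 and Snora61 and the box C/D snoRNA Snord99, averaged 7.88 ± 2.32 CPM in Input and 10.5 ± 1.69 in IP (SD, n = 8). Input held 12 CPM in het729, 7.77 in het786, 8.9 in wt785, 9.82 in wt736, 7.79 in wt734, 5.84 in wtBT13, 5.7 in wtBT14 and 5.22 in hetBT13. IP held 7.72 CPM in het729, 12.1 in het786, 10 in wt785, 12 in wt736, 10.4 in wt734, 8.64 in wtBT13, 10.8 in wtBT14 and 12.4 in hetBT13. The exception among the animals was het729, whose IP level was the lowest and whose Input level was the highest of the 8. IP was above Input in the other 7 animals, with ratios up to 2.37 in hetBT13, while het729 had 0.643 (0.416 to 0.995). The fit gave 0.38 on the log2 scale (1.31-fold), 0.67 without het729 and 0.21 without hetBT13.

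Snhg3 averaged 1.1 ± 0.523 CPM in Input and 1.83 ± 0.603 in IP (SD, n = 8), on 1 to 6 and 4 to 14 counts. Its Input levels ran from 0.269 CPM in wt734 to 1.94 in het786 and its IP levels from 0.835 in wt785 to 2.44 in wtBT13, so the fractions overlapped. The ratio ran from 0.581 in wt785 to 6.83 in wt734, where it sets 11 counts against 1 (interval 0.993 to 294). No Snhg3 interval lay wholly on either side of 1, so in each animal the counting error takes in equal levels. Of the 4 hosts none was above Input in all 8 animals, a pattern that 23.1% of the genes tested had.

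**Figure D2:**
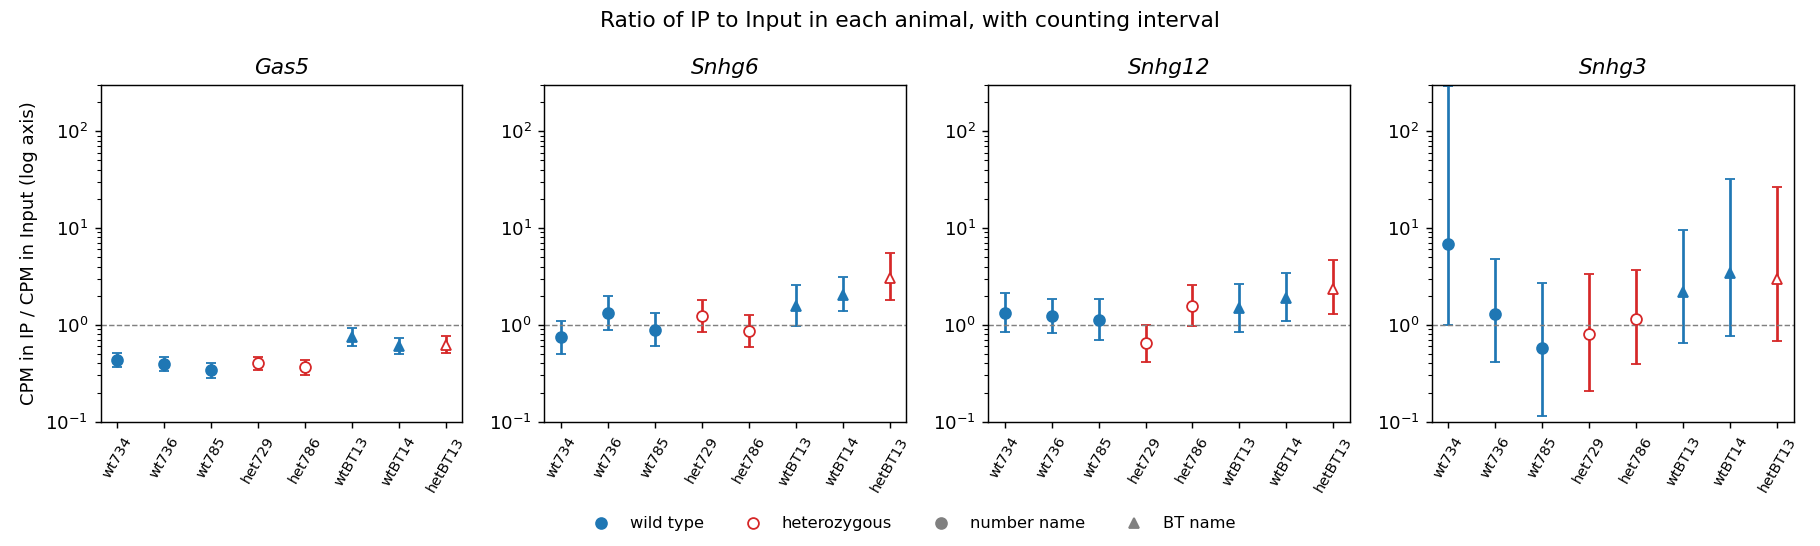
Ratio of IP to Input CPM (log axis) in each of the 8 animals for the 4 hosts; bars are 95% exact binomial intervals for counting error, and the dashed line marks 1. All 8 Gas5 ratios lie between 0.339 and 0.747, while Snhg6 and Snhg12 reach 3.03 and 2.37 in hetBT13 and Snhg3 intervals all take in 1.

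The IP to Input difference of Gas5 lay within the range of protein-coding snoRNA hosts and above that of most nuclear noncoding RNAs. With edgeR, 33.3% of the genes tested were called higher in IP and 29.9% lower, at a Benjamini-Hochberg adjusted p under 0.05, and the median log2 difference over all genes was 0.04. Of 46 cytosolic ribosomal protein genes, 40 were lower and 1 higher (Rpl22), with a median of -0.54. Of 36 protein-coding genes that host snoRNAs in their introns, 23 were lower and 8 higher, with a median of -0.34. Most of the 23 lower ones are themselves ribosomal protein genes, which are not among the 46. None of the 8 higher ones has an Rpl or Rps name. Rpl4 (-1.33, from 665 ± 74.3 to 270 ± 45.7 CPM) and Rpl13a (-1.13, from 205 ± 41.1 to 93.1 ± 15.3 CPM), both ribosomal proteins, were the 2 further down than Gas5. At the other end of that list stood Toe1 (0.75), an RNA deadenylase, and Chd4 (0.60), a chromatin remodeller.

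Noncoding hosts other than the 6, where tested, were not called different between IP and Input. Of 13 such genes 8 were matched and 6 had enough counts to test, and edgeR called 0 in either direction, with an unadjusted p above 0.05 in all 6 and 0 called by DESeq2. Their log2 differences ran from -0.36 to 0.27, with a median of -0.16. At mean levels of 2.79 to 9.2 CPM, the lack of a call does not show equal levels. Zfas1, a TOP-type host whose reads cannot be parted from overlapping genes without strand, was at 9.64 ± 3.15 CPM in Input and 8.76 ± 1.48 in IP (log2 -0.10, edgeR adjusted p = 0.614). Snhg20 was at 6.96 ± 2.63 and 5.32 ± 0.932 CPM (log2 -0.36, edgeR adjusted p = 0.136).

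Noncoding snoRNA and microRNA hosts known for neuronal expression or nuclear retention had lower log2 differences than Gas5. Snhg11, a neuronal host, fell from 444 ± 56.5 CPM in Input to 120 ± 37.5 in IP (log2 -1.94, edgeR adjusted p = 2.4e-08). Meg3 and Rian, imprinted noncoding RNAs of 1 locus, fell by 2.11 and 2.16 on the log2 scale. These were the 3 tested members of their list. The 4 tested nuclear long noncoding RNAs were also called lower, led by Malat1 (log2 -2.76), and all 15 mitochondrially encoded genes, which cytosolic ribosomes do not translate, had a median of -4.19. The log2 differences of Snhg6 (0.37), Snhg12 (0.38) and Snhg3 (0.64) lay on the opposite side of the median of all genes from these groups. Of all genes tested, 71.6%, 72.4% and 85.4% had a value that low or lower. Glial markers were lower in IP as well: 12 of 13 astrocyte genes, 9 of 10 oligodendrocyte genes and 8 of 10 microglial genes were called lower. Of 11 cortical neuron markers 6 were also called lower and 5 higher, with a median of -0.42. Summed astrocyte markers ranged from 2077.8 to 2969.7 CPM in Input and from 1021.8 to 1548.6 in IP. Summed cortical neuron markers ranged from 7601.5 to 9690.2 CPM in Input and from 4396.9 to 6168.4 in IP. The part of these markers in the Gas5 difference was not tested.

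**Figure D3:**
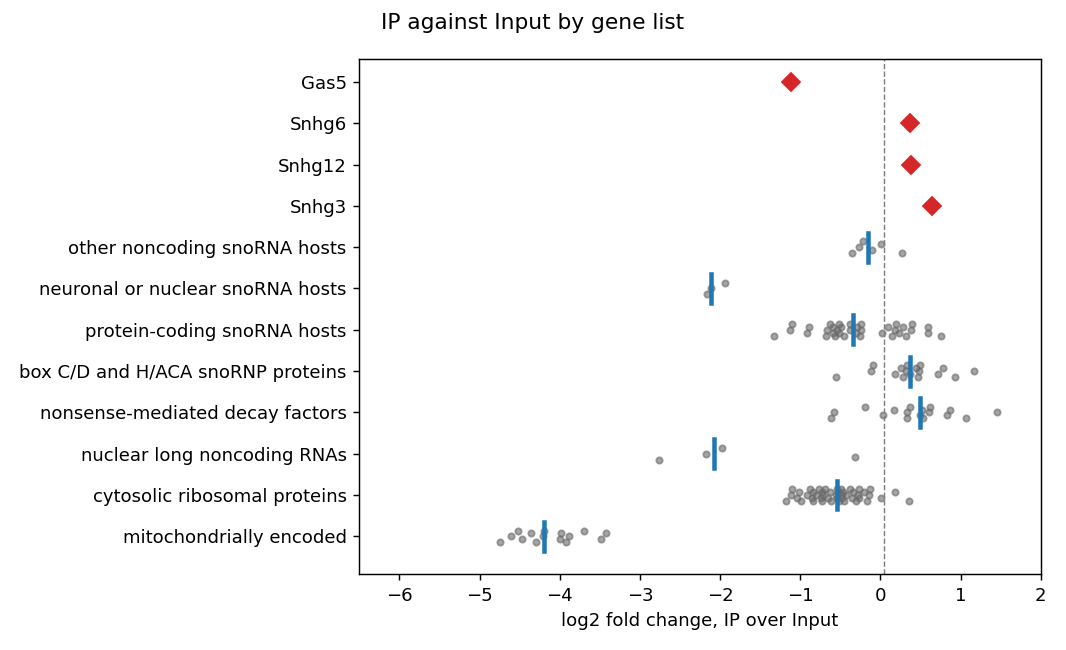
Log2 difference of IP against Input (horizontal axis) for the 4 hosts (diamonds) and for each tested gene of 8 lists (dots), with the median of each list as a vertical bar and the median of all genes as a dashed line. Gas5 at -1.12 lies within the range of protein-coding snoRNA hosts, and Snhg6, Snhg12 and Snhg3 lie at 0.37, 0.38 and 0.64.

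The genes whose proteins work on snoRNAs, and those that carry out nonsense-mediated decay, were mostly higher on ribosomes. Of 17 genes for snoRNP proteins and their assembly factors 12 were higher and 1 lower, with a median log2 difference of 0.37. Fbl (fibrillarin, the box C/D methyltransferase) rose from 5.38 ± 1.92 to 11.3 ± 1.02 CPM (log2 1.17, edgeR adjusted p = 6.6e-06) and Shq1, an H/ACA assembly factor, by 0.93 on the log2 scale. Snu13, a box C/D core protein, was the member called lower (-0.55). Of 17 decay factors 12 were higher and 3 lower, with a median of 0.50. Upf1, the central helicase of the pathway, rose from 2.89 ± 1.01 to 7.95 ± 3.32 CPM (log2 1.45, edgeR adjusted p = 2.16e-06) and Smg6, its endonuclease, by 1.07 on the log2 scale, while Pnrc2 and Rnps1 fell by 0.61 and 0.58.

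Input levels of Gas5, Snhg6 and Snhg12 were each about 0.6-fold as high in BT-named as in number-named animals, and no such order was seen in IP. Gas5 averaged 60.8 ± 5.84 CPM in BT-named Input (SD, n = 3) and 98.2 ± 8.81 in number-named Input (n = 5), with no overlap. Snhg12 averaged 5.59 ± 0.323 CPM in BT-named and 9.26 ± 1.75 in number-named Input, again with no overlap (5.22 to 5.84 against 7.77 to 12). Snhg6 averaged 8.22 ± 2.04 CPM in BT-named and 13.5 ± 2.42 in number-named Input, where wtBT14 at 10.4 overlapped wt736 at 10.1. Snhg3 averaged 0.85 ± 0.243 and 1.26 ± 0.61 CPM with overlap. The fit that also holds genotype gave log2 differences of -0.70 for Gas5 (0.614-fold), -0.71 for Snhg6 (0.613-fold) and -0.73 for Snhg12 (0.604-fold), and Snhg3 had too few counts to enter it. All BT-named animals lay below all number-named ones in Input for 7.71% of the 13870 genes tested, and Gas5 and Snhg12 are in that share by choice of the list.

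In IP the same animals gave 39.7 ± 1.55 CPM of Gas5 with BT names and 37.9 ± 4.15 with number names, a log2 difference of 0.07. Snhg12 stood at 10.6 ± 1.87 and 10.4 ± 1.8 CPM (log2 0.03). Snhg6 stood at 17.7 ± 4.88 and 13.2 ± 1.83 CPM (log2 0.45), and Snhg3 at 2.34 ± 0.123 and 1.53 ± 0.569 CPM (log2 0.59). For all 4 hosts the name forms overlapped in IP, where 5.76% of genes had every BT-named library below, and 5.24% every one above, the number-named libraries. The Gas5 ratio of IP to Input was therefore less far from 1 in BT-named animals, at 0.605 to 0.747 (geometric mean 0.655) against 0.339 to 0.436 (0.386). For Snhg6 the ratio was 1.56 to 3.03 in BT-named animals (2.13) and 0.743 to 1.31 in number-named ones (0.984). The ratio of every BT-named animal was above that of every number-named one for these 2 hosts and for 4.56% of the genes tested. For Snhg12 the ratios overlapped, at 1.48 to 2.37 and 0.643 to 1.56.

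The IX and IXX libraries of hetBT14 held 83.9 and 99.5 CPM of Gas5, above every BT-named Input compared, the higher of them inside the number-named range, and those of het730 held 133 and 103. What IX and IXX stand for is not given. If these libraries are taken as Input, the BT-named and number-named ranges of Gas5 overlap, though hetBT14 stayed below het730. With these libraries summed per animal and added to Input, a choice made after the data were seen, the log2 difference was -0.57 for Gas5, -0.36 for Snhg6 and -0.38 for Snhg12.

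Ribosomal protein genes were also lower in BT-named Input. Of them 35 of 46 were called lower and 0 higher with edgeR, with a median log2 difference of -0.49, where over all genes 4.43% were called lower and 1.43% higher. Their summed level was 2028 to 2815 CPM in BT-named Input and 3181 to 3677 in number-named Input, and 1775 to 1914 against 2019 to 2424 CPM in IP. Per animal the summed level in IP was 0.581 to 0.682 of that in Input in number-named animals and 0.944 in wtBT13, 0.71 in wtBT14 and 0.664 in hetBT13. Unlike the Gas5 ratio, this ratio overlapped between the name forms. Protein-coding hosts had 11 of 36 called lower and 0 higher (median -0.30), but 5 without wtBT13, the Input library with the lowest ribosomal protein sum. Most of the 11 are themselves ribosomal protein genes that are not among the 46. Among other noncoding hosts Zfas1 was called lower (log2 -1.02, edgeR adjusted p = 0.00517) and 5 were not called. With DESeq2, or with the IX and IXX libraries, 0 were called. Mitochondrially encoded RNA took 0.92% to 1.4% of BT-named and 1.41% to 1.85% of number-named Input counts. The part of these shifts in the level of the hosts was not tested.

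**Figure D4:**
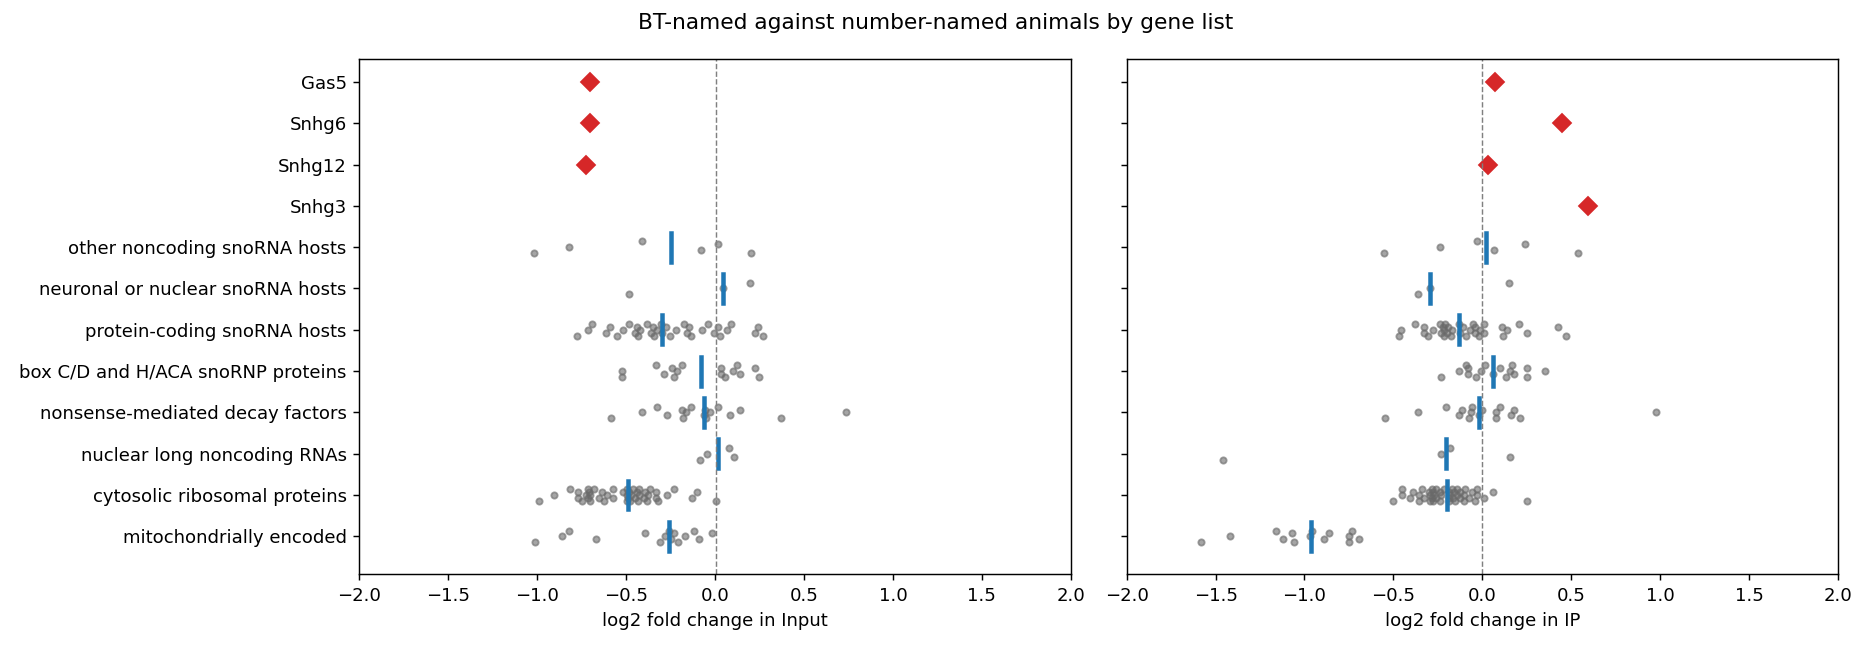
Log2 difference of BT-named against number-named animals in Input (left) and IP (right) for the 4 hosts (diamonds; Snhg3 had too few counts in Input) and the genes of 8 lists (dots), with list medians as bars and the median of all genes as a dashed line. In Input Gas5, Snhg6 and Snhg12 lie at -0.70 to -0.73, beside a ribosomal protein median of -0.49, and in IP they lie at 0.07, 0.45 and 0.03.

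The genes most like Gas5 across the 16 libraries were mainly ribosomal protein copies. After the mean of each fraction was removed from the log2 CPM, Pearson's r with Gas5 was 0.95 for Rpl23a-ps3, 0.93 for Rps26-ps1, Rpl37rt and Ndufb3, and 0.92 for Rps19-ps4, the highest of 12180 genes. Within Input alone r was 0.972 for Rpl23a-ps3, 0.935 for Rps26-ps1, 0.968 for Rpl37rt, 0.988 for Ndufb3 and 0.948 for Rps19-ps4, and within IP alone 0.789, 0.85, 0.559, 0.515 and 0.763. The likeness was thus closer in Input, where the name forms spread Gas5 apart, than in IP. These are descriptions over 16 libraries that share animals in pairs and differ by name form. Rpl23a-ps3, Rps26-ps1, Rps19-ps4 and Rpl37rt are near-identical to ribosomal protein mRNAs, and their counts are uncertain because reads could come from either copy. Ndufb3 encodes a subunit of respiratory complex I. With the mean of the 4 hosts, r was highest for Echs1 (0.91), Dpy30 (0.89), Mrpl42, Tsen15 and Ndufaf8 (0.86 each). Between the hosts themselves r was 0.65 for Gas5 and Snhg12, 0.59 for Gas5 and Snhg6, 0.48 for Snhg6 and Snhg12, and 0.17 to 0.35 for pairs with Snhg3.

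The heterozygous Foxp2 deletion was not accompanied by a called change in any host tested. These were all 4 hosts in IP, and Gas5, Snhg6 and Snhg12 in Input. In Input Gas5 stood at 90.7 ± 23.2 CPM in heterozygotes (SD, n = 3) and 80.3 ± 20.8 in wild types (n = 5), and in IP at 40 ± 5.02 and 37.7 ± 2.18. The groups overlapped in both. The edgeR log2 change of Gas5 was 0.20 in Input (SE 0.233, adjusted p = 0.878) and 0.08 in IP (SE 0.125, adjusted p = 0.981). Within the name forms heterozygotes had 109% (number) and 112% (BT) of the wild-type Gas5 level in Input, and 108% and 104% in IP, where BT-named animals hold 1 heterozygote. Without het729 the log2 change was -0.0077 in IP and 0.014 in Input.

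Snhg6 stood at 11.6 ± 4.91 CPM in heterozygous and 11.5 ± 2.98 in wild-type Input, and at 16.2 ± 2.91 and 14.1 ± 4.3 in IP, with log2 changes of 0.06 (SE 0.259, edgeR adjusted p = 0.969) and 0.19 (SE 0.232, edgeR adjusted p = 0.981). Within the name forms it was at 109% and 70.5% of wild type in Input. Snhg12 stood at 8.33 ± 3.42 and 7.61 ± 1.83 CPM in Input and at 10.7 ± 2.62 and 10.4 ± 1.22 in IP, with log2 changes of 0.19 (SE 0.267, edgeR adjusted p = 0.897) and 0.04 (SE 0.212, edgeR adjusted p = 0.996). Without het729 the Snhg12 change was -0.21 in Input and 0.23 in IP. Its direction differed between the name forms in both fractions: 112% (number) and 90.5% (BT) in Input, 92% and 127% in IP. Snhg3 stood at 1.35 ± 0.571 and 0.956 ± 0.492 CPM in Input, where it was not tested, and at 1.88 ± 0.719 and 1.8 ± 0.614 in IP (log2 0.05, SE 0.43, edgeR adjusted p = 0.997). Without het729 the Snhg3 change in IP was 0.33. Heterozygotes and wild types overlapped for every one of these values.

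The difference between the genotype effects in IP and in Input, from the fit with the animal as a block, was -0.11 on the log2 scale for Gas5 (SE 0.227), -0.51 for Snhg3 (SE 0.756), 0.17 for Snhg6 (SE 0.366) and -0.14 for Snhg12 (SE 0.358), each with an edgeR adjusted p of 1. Without het729 the value of Snhg12 turned to 0.44 and that of Snhg3 was -0.20. The wild-type ratio of IP to Input had a geometric mean of 0.483 for Gas5 and the heterozygous one 0.45. Over all genes edgeR called 0% in each of the 3 genotype comparisons. The genes with an unadjusted p under 0.05 numbered 604 in IP, 979 in Input and 454 for the difference, and DESeq2 called 3, 0 and 0. A p that misses the threshold does not show equal levels, and the SEs of the tested hosts ran from 0.125 to 0.43 on the log2 scale within a fraction.

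Related lists also held no called gene by genotype. In Input the median log2 change was 0.23 for the 46 ribosomal protein genes, of which 45 were positive, 0.16 for the 36 protein-coding hosts, of which 31 were positive, and 0.01 over all genes. In IP the medians were 0.08 and 0.04, against 0.003 over all genes. The protein-coding hosts include ribosomal protein genes that are not among the 46. Gas5 stood at 0.20 and 0.08. Other lists moved in the same comparisons, also with no gene called. Astrocyte markers had a median of -0.40 in Input (12 of 13 negative) and -0.38 in IP (11 of 13), and microglial markers -0.26 (9 of 10) and -0.37 (10 of 10). Mitochondrially encoded genes had a median of 1.04 in IP, with 14 of 14 positive, and the het729 library described above is among the heterozygotes. The part of these lists in the values of the hosts was not tested.

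**Figure D5:**
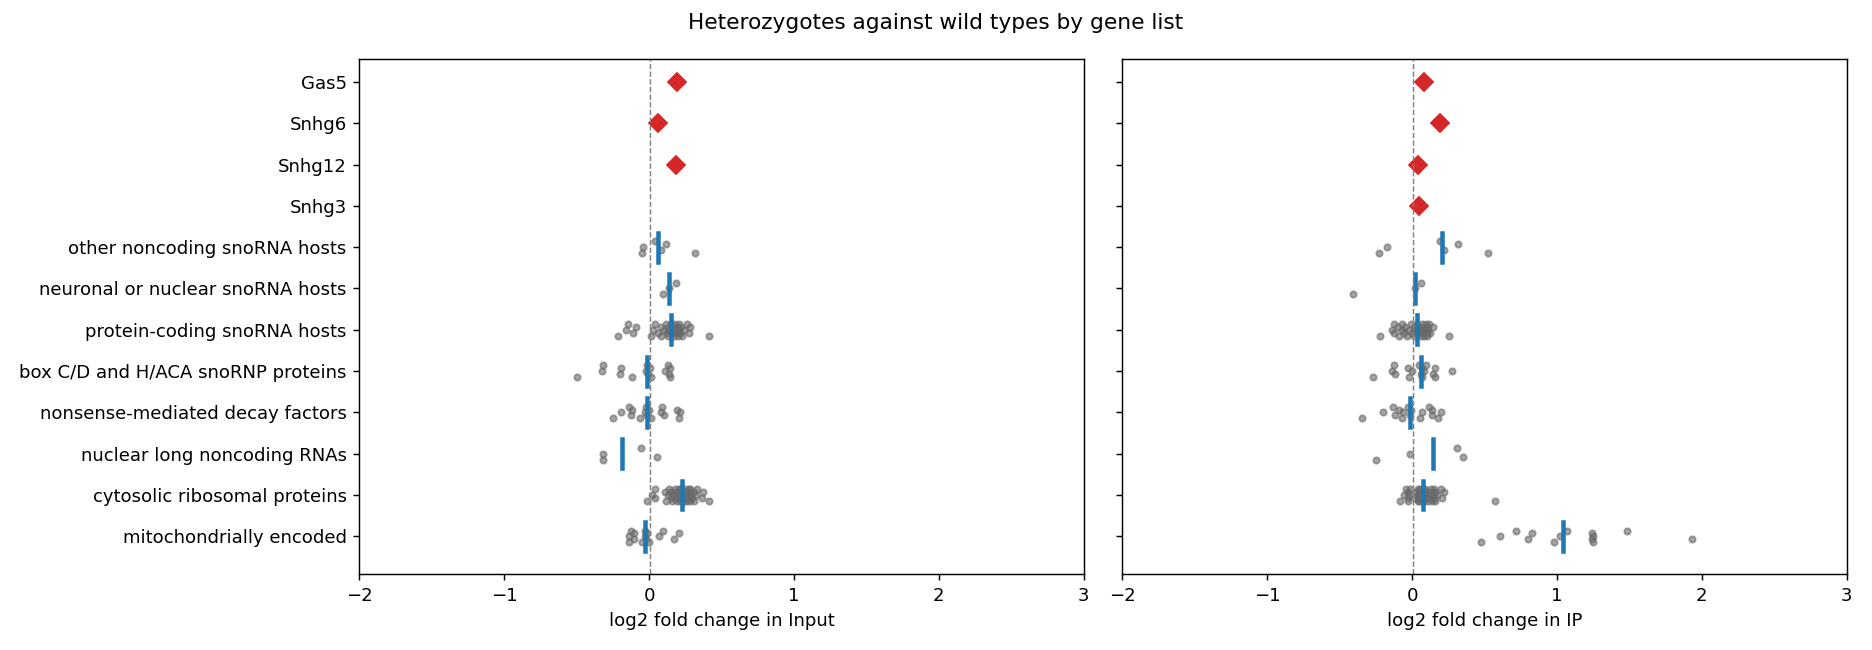
Log2 change of heterozygotes against wild types in Input (left) and IP (right) for the 4 hosts (diamonds; Snhg3 not tested in Input) and the genes of 8 lists (dots), with list medians as bars and the median of all genes as a dashed line. The hosts lie between 0.06 and 0.20 in Input and between 0.04 and 0.19 in IP, and no gene shown passed the test.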

How the data were processed

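For 20 Smart-seq2 libraries of 10 animals the authors deposited a table of raw counts by Ensembl gene. The submitters' processing notes name HTSeq and the build mm10. Version, aligner, annotation and strand setting are not given in the sources used here. Tests were run with edgeR 4.0.16 under R 4.3.3 (filterByExpr with a count minimum of 10, TMM, robust quasi-likelihood tests, Benjamini-Hochberg adjusted p under 0.05 over all genes) and, as an alternative, DESeq2 1.42.0. Counts scaled to a common library size (CPM) share 1 TMM scaling over all libraries. IP and Input of an animal come from 1 lysate and form a block. Their deviations from the fraction means correlated above 0.1 in 7 of 8 animals (0.0291 to 0.265). The IP library of wtBT14 correlated less with its own Input (0.117) than with that of another animal (0.221). In the other animals the own Input gave the highest value. Animals are the replicates, so p-values measure the spread between animals. Ratio intervals are exact binomial. Named genes were all members, up to 4 genes per list (the 2 highest and the 2 lowest IP against Input changes at a mean of at least 5 CPM), the 5 most like Gas5 and the 5 most like the hosts' mean. The members and lists were chosen with earlier results of these data known. GENCODE M21 gave the gene models and RefSeq (GRCm38.p6) the start sequences, with entries for 5 of the 6 hosts.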

Additional observations from a re-analysis of the deposited data

Results flagged for a closer look

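The IX and IXX libraries of the heterozygotes het730 and hetBT14 entered no comparison. Over 4 hosts in 4 libraries, a host was higher there than in every wild-type Input library in 9 cases. The share of all genes with this pattern was not computed, so the count is not a result about the hosts. Gas5 was at 133 CPM in the IX and 103 in the IXX library of het730, against at most 102 in wild-type Input. Snhg3 was at 2.16 and 2.24 CPM in the IX and IXX libraries of hetBT14, on 12 and 8 counts, against at most 1.44. Snhg6 was above the wild-type maximum of 15.2 CPM in all 4 libraries, at 16.9 and 15.4 in het730 and 15.3 and 17.1 in hetBT14. Snhg12 was at 10.6 CPM in the IX library of hetBT14, against at most 9.82. What IX and IXX stand for is not stated in the descriptions, and both libraries of an animal count as 1 animal. No library met the criterion for standing apart within the groups of 5 wild types.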

How the results depend on the processing

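Over 22 results for single hosts and 261 refits, no refit called a host by genotype, and 16 genotype values turned sign. Among untested values, that of Snhg12 by name form in IP, 0.03, turned to -0.09 without het729 and -0.15 without hetBT13, within 1 SD, and those of Snhg6 and Snhg12 by name form in Input moved by more than 1 SD with the IX and IXX libraries. With the name form as a covariate Snhg6 in Input was at -0.013. The others came from leaving out 1 animal, where the log2 change ran in IP from -0.0077 to 0.17 for Gas5, -0.16 to 0.33 for Snhg3 and -0.076 to 0.23 for Snhg12, in Input from -0.23 to 0.30 for Snhg6 and -0.21 to 0.39 for Snhg12, and for the difference of the effects from -0.33 to 0.037 for Gas5, -0.25 to 0.55 for Snhg6 and -0.49 to 0.44 for Snhg12. The Gas5 difference between IP and Input ran from -1.22 to -1.04 over all alternatives, and its place below Input in 8 of 8 animals held with no scaling factor and with RLE factors. Genes called by genotype numbered 3 in IP with DESeq2, and without the filter on low counts 28 in Input and 11 for the difference of effects. Genes called by name form in Input numbered 813, 484 with the IX and IXX libraries and 368 to 873 without 1 animal (lowest without wtBT13, and 436 without wt734). In IP they numbered 97, 402 with DESeq2, 792 without the filter, and 0 to 224 without 1 animal: 0 without wtBT14 (1749 at an unadjusted p under 0.05), 13 without wt736, 24 without wt785 or wtBT13, 37 without wt734 and 224 without het786. The cause was not tested. Without the replicate block 8999 genes were called between IP and Input, against 9355 with it, and 0 for the difference of the genotype effects in both. Of the lists, ribosomal proteins called lower numbered 37 without the block against 40, and snoRNP proteins called higher 11 against 12. Snhg3 and Snhg12, at 1 to 14 and 13 to 77 counts, are limited most by depth.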

Other observations

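Few of the snoRNAs that lie inside the hosts had a row in the count table. Of the 10 entries annotated inside Gas5 none was matched to a row of the count table, nor were those of Snhg3, and their levels are not analysed here. Snord87, inside Snhg6, had 2 counts over all 20 libraries, Snora16a, inside Snhg12, had 14, and Snora24, inside Snhg8, had 22. The host levels above therefore rest on exon reads and any reads from retained introns or from snoRNA entries that annotated exons cover. They say nothing on the level of the snoRNAs.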
